A study of Homo sapiens with 16 samples.

Results

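The 31 genes described here encode the glucose transporters, the enzymes of glycolysis, the enzymes that set its rate and the lactate exporters, with PGM1 and FBP1 at its branch point and on its reverse step. They were matched by gene symbol to the 60658 genes of each deposited table, and all 31 were found, each in 1 row. RNA-seq was run on MDA-MB-231, an established triple-negative human breast cancer line, at passage 10-15. The line was used as wild type (WT) and with the circadian clock gene BMAL1 knocked out (genotype BMAL1 -/-, here KO), and each genotype was left as control or given cisplatin, doxorubicin or tunicamycin. Cisplatin crosslinks DNA, doxorubicin intercalates into DNA and poisons topoisomerase, and tunicamycin blocks N-glycosylation and so stresses the endoplasmic reticulum. The labels give 8 groups of 2 biological replicates, 16 samples in all, with doses, times and the number of KO clones not given in the sources used here. The authors deposited 1 table per treatment with 1 level per group, as FPKM (read fragments scaled to transcript length and library size), so the spread between replicates cannot be shown. Genes count as called if the authors' test of KO against WT within a table gave a q of at most 0.05.

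Glycolysis splits glucose into pyruvate in the cytosol. Glucose enters through GLUT transporters (SLC2A genes), is trapped as glucose 6-phosphate by hexokinase, and is committed to breakdown by phosphofructokinase, whose activator is made and removed by the PFKFB enzymes. Many tumour lines turn most of the pyruvate into lactate with lactate dehydrogenase and export it through monocarboxylate carriers (SLC16A genes). Pyruvate dehydrogenase kinases (PDK genes) hold back the use of pyruvate by pyruvate dehydrogenase in the mitochondria. Several of these genes are textbook targets of HIF-1 and MYC. The E-box CACGTG that BMAL1 and CLOCK bind is also the site of MYC, and the HIF-1 site shares bases with it.

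ARNTL, which encodes BMAL1, went from 5.67 in WT to 0.889 FPKM in KO cells in control, from 1.26 to 0.941 under cisplatin, from 1.31 to 0.474 under doxorubicin and from 3.25 to 2.24 under tunicamycin. KO was the lower group in each, the control and doxorubicin differences were called, and the labels do not state which part of the gene was edited. All 4 markers fixed for the line (VIM, CD44, CAV1 and AXL) were at 1 FPKM or more in all groups, with a summed level between 3666 and 7959. Of 7 luminal and epithelial markers, ESR1, PGR and CDH1 stayed below 1 FPKM in every group, and the summed level, led by KRT19, was lower in KO than in WT cells under each treatment: 328.7 to 180.2 in control, 385 to 189 under cisplatin, 63.5 to 34.6 under doxorubicin and 285 to 120.2 under tunicamycin. KRT19, EPCAM, ERBB2 and, of the markers of the line, CD44 and AXL were called lower in all 4 tables. CAV1 went the other way and was called higher in all 4, and the luminal GATA3 was called higher in all but doxorubicin. VIM was called lower in all but doxorubicin, where it was called higher. Of 6 fibroblast markers 5 stayed below 1 FPKM, and the summed level, mostly COL1A1, was 2.38 to 5.80, 7.40 to 9.72, 0.277 to 1.56 and 2.45 to 5.79 from WT to KO in the same order. Of 4 blood cell markers 3 stayed below 1 FPKM. The part of these marker differences in the results on glycolysis genes was not tested. In bulk RNA, fewer cells of a type and less RNA per cell cannot be told apart. Counts per library are not given, so no interval can be put on a level. As a rough guide to depth, the 5th percentile of values above 0 was 1.35 to 2.74 times lower in the other groups than in WT control. Mitochondrial mRNAs made up 3.16% to 6.37% of summed FPKM in control, cisplatin and tunicamycin, with KO below WT in each, and 9.71% (WT) and 9.37% (KO) under doxorubicin. Their part in the results was not tested. Genes of one locus or with near-identical copies can share reads: the tables list 104 numbered pseudogenes of 12 of the 31 genes. Their summed level stayed within 2% of the parent gene except for SLC2A3, where it reached 22.4%.

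Levels ran from 0 to 12622 FPKM. GAPDH, ENO1, PKM and ALDOA were at 1000 FPKM or more in all 8 groups, and 12 of the 31 genes were at 100 or more throughout. ENO3, PDK1, PDK3, PFKFB2, PFKFB4 and SLC16A1 stayed under 10. Together the 31 genes held 2.13% of summed FPKM in WT control and 2.71% in KO control, 2.36% and 2.5% under cisplatin, 2.66% and 3.31% under doxorubicin, and 2.17% and 2.44% under tunicamycin. The share was larger in KO than in WT cells under each treatment, and GAPDH alone made up 29.6% to 40.2% of it.

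Knockout and wild-type cells were first compared within each treatment. In control, calls were made for 24 of 30 tested members, 16 with KO above WT and 8 below, where 43.8% of all tested genes were called (22.7% higher, 21.1% lower). In cisplatin 26 of 30 were called, 12 higher and 14 lower, beside 49.6% of all tested genes (25.4% higher, 24.2% lower). Doxorubicin gave 25 of 30, with 16 higher and 9 lower, beside 45.1% (24.4% higher, 20.7% lower), and tunicamycin 24 of 31, with 16 higher and 8 lower, beside 49.3% (27.2% higher, 22.1% lower). Abundant genes were called more often in these tables. Among genes at 100 FPKM or more in either group, 81.5%, 84.7%, 88.2% and 88.5% were called in control, cisplatin, doxorubicin and tunicamycin, and of the members at that level 12 of 14, 14 of 14, 13 of 13 and 13 of 14. The share called among the abundant members was thus near that of other abundant genes. For the members below 100 FPKM no such comparison was made. Most called differences were small: 15, 18, 13 and 15 of them were under 1.5-fold. The median log2 ratio of KO over WT in the authors' deposited tables was 0.18 over the tested members in control, -0.11 under cisplatin, 0.21 under doxorubicin and 0.18 under tunicamycin, beside 0.01, 0.02, 0.04 and 0.03 over all tested genes. Of 30 members tested in all 4 tables, 5 had KO above WT by a call in each (ALDOA, ALDOC, TPI1, GAPDH and PKM) and 6 had it below (SLC2A1, SLC2A8, HK2, ENO2, PDK3 and FBP1), where 9.00% and 8.66% of all genes tested in the 4 tables did so.

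**Figure D1:**
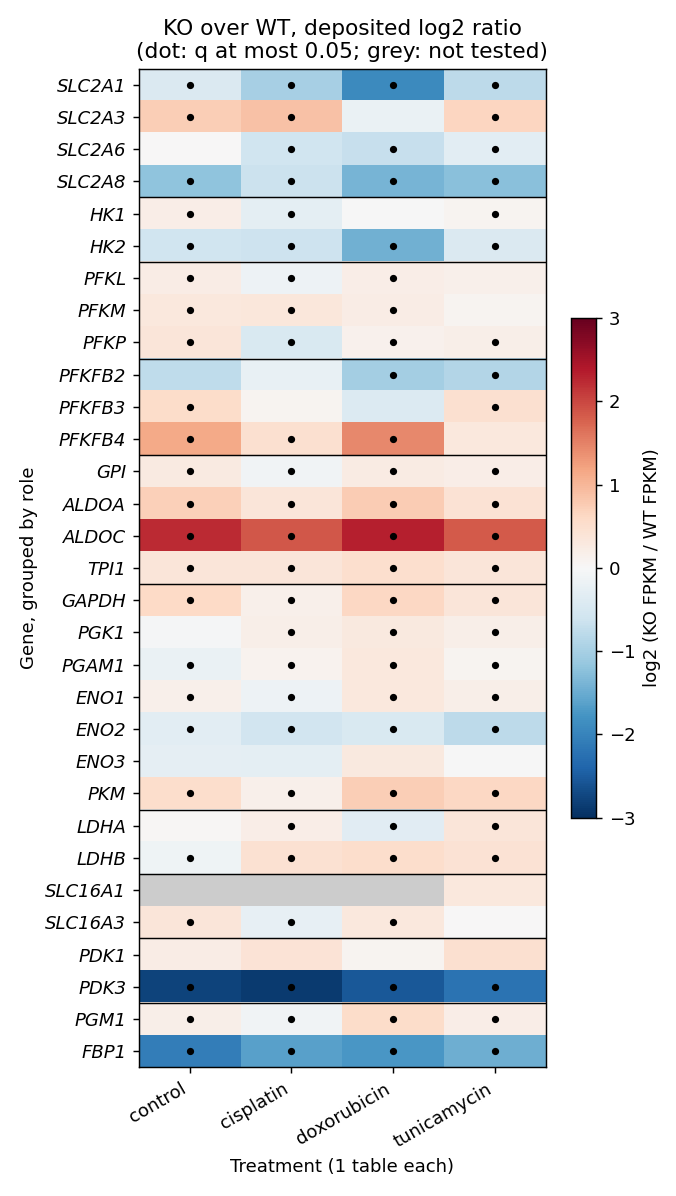
Deposited log2 ratio of KO over WT FPKM for the 31 genes (rows, grouped by role) under 4 treatments (columns); red is higher and blue lower in KO cells, a dot marks q of at most 0.05 and grey a gene that was not tested. ALDOC is the darkest red row and PDK3 and FBP1 the darkest blue, and the cisplatin column holds several pale blue cells in rows that are pale red elsewhere.

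The main glucose transporter was lower in the knockout. SLC2A1 (GLUT1, chromosome 1, 42925375 to 42959176, GRCh38, minus strand) was the most abundant of the 4 glucose transporters in all groups. It went from 556 in WT to 415 FPKM in KO in control, from 347 to 174 under cisplatin, from 249.9 to 66.3 under doxorubicin and from 727 to 421 under tunicamycin. KO was the lower group in each treatment, by 1.34-fold in control, 1.99-fold under cisplatin, 3.77-fold under doxorubicin and 1.72-fold under tunicamycin, and all 4 differences were called. SLC2A3 (GLUT3), a transporter of high affinity for glucose, was called in the other direction in 3 tables, at 8.17 to 13.6 in control, 12.2 to 22.6 under cisplatin and 9.91 to 15.6 under tunicamycin. Under doxorubicin it was 7.38 to 6.39 (q = 0.488 in the authors' deposited table). The ratio of SLC2A1 to SLC2A3 was 68.1 in WT and 30.6 in KO control, 28.4 and 7.70 under cisplatin, 33.9 and 10.4 under doxorubicin and 73.4 and 27.1 under tunicamycin. SLC2A3 has a near-identical neighbour, SLC2A14, itself at 0.04 to 1.89 in control, so the split of reads between them is uncertain. SLC2A8 (GLUT8), which resides on intracellular membranes, was called lower in each table, at 8.95 to 3.88, 11.5 to 7.39, 6.71 to 2.56 and 9.27 to 3.89 in control, cisplatin, doxorubicin and tunicamycin. It lies on chromosome 9 in a 10 Mb window (120000001 to 130000000) whose other 92 genes had median log2 ratios of -0.41, -0.42, -0.40 and -0.44 in those tables. SLC2A6 (GLUT6), at 7.81 to 7.91 in control (q = 0.928 in the authors' deposited table), was called lower under cisplatin (19.3 to 12.8), doxorubicin (7.28 to 4.51) and tunicamycin (12.2 to 9.80). The 90 other genes of its window on chromosome 9 had medians of -0.26, -0.59, -0.38 and -0.48.

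Of the hexokinases, the ubiquitous HK1 was the more abundant and HK2, the inducible form of many tumours, was the one that was lower in KO cells throughout. HK2 (chromosome 2, 74833981 to 74893359) went from 17.9 to 11.9 FPKM in control, 14.8 to 9.62 under cisplatin, 3.69 to 1.36 under doxorubicin and 25.5 to 18.8 under tunicamycin, called in each. The 59 other genes of its window had median log2 ratios of -0.32, -0.12, -0.23 and -0.20, against -0.59, -0.62, -1.44 and -0.44 for HK2 in the authors' deposited tables. HK1 stayed between 87.6 and 123 in the 8 groups. It was called higher in KO cells in control (108 to 123) and tunicamycin (106 to 113), a direction that reversed under tunicamycin when levels were rescaled to the same total, and lower under cisplatin (112 to 92.3). HK1 exceeded HK2 6.01-fold in WT and 10.3-fold in KO control, and 23.8-fold and 64.6-fold under doxorubicin.

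Among the mRNAs of phosphofructokinase, the committing step, PFKP, the platelet type, was the most abundant. It held 59.4% to 73.9% of the summed FPKM of PFKP, PFKL and PFKM. PFKP was called higher in KO cells in control (206 to 267), doxorubicin (324 to 355, reversed when rescaled to the same total) and tunicamycin (217 to 245), and lower under cisplatin (176 to 128). PFKL, the liver type, was called higher in control (36.3 to 42.3) and doxorubicin (75.2 to 86.8, also reversed when rescaled) and lower under cisplatin (49.4 to 44.4). The muscle type PFKM was called higher in control (42.1 to 52.2), cisplatin (34.0 to 43.2) and doxorubicin (69.4 to 80.7). The PFKFB enzymes make and break fructose 2,6-bisphosphate, the activator of phosphofructokinase. PFKFB3, the most abundant of them, was called higher in KO cells in control (25.5 to 37.1) and tunicamycin (17.5 to 24.3) and was 31.8 to 33.5 under cisplatin and 6.06 to 4.54 under doxorubicin. PFKFB4 was called higher in control (3.78 to 8.31), cisplatin (6.73 to 9.35) and doxorubicin (0.374 to 1.02), and was 2.36 to 2.93 under tunicamycin. PFKFB2 was called lower under doxorubicin (2.64 to 1.30) and tunicamycin (3.19 to 1.73), at 2.83 to 1.66 in control and 3.23 to 2.78 under cisplatin. PFKFB4 overlaps UCN2 on the same strand and PFKFB2 overlaps YOD1 on the other, both at several FPKM, and the use of strand in counting is not given in the sources used here.

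The largest rise in KO cells in the set was that of an aldolase, ALDOC. ALDOC, the brain-type aldolase (chromosome 17, 28573115 to 28577264, minus strand), went from 1.78 to 8.40 FPKM in control, 4.14 to 15.1 under cisplatin, 3.66 to 18.3 under doxorubicin and 2.42 to 8.61 under tunicamycin. KO exceeded WT by 4.72, 3.65, 5.01 and 3.56-fold, and the lowest KO level was above the highest WT level. ALDOA, the main aldolase of these cells, was higher too, at 1212 to 1993, 1774 to 2266, 2159 to 3660 and 1262 to 1702, and it exceeded ALDOC 682-fold in WT and 237-fold in KO control. The 42 other genes of the ALDOA window on chromosome 16 had median log2 ratios of 0.35, 0.21, 0.33 and 0.19. ALDOA itself had 0.72, 0.35, 0.76 and 0.43 in the authors' deposited tables. TPI1, which interconverts the 2 triose phosphates, was 771 to 989 in control, 1019 to 1305 under cisplatin, 1292 to 1830 under doxorubicin and 673 to 859 under tunicamycin, called higher in each. GPI, which turns glucose 6-phosphate into fructose 6-phosphate, was called higher without drug (218 to 263) and under doxorubicin (399 to 469.8) and tunicamycin (225 to 258) and lower under cisplatin (261 to 242).

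After the triose phosphates, GAPDH and PKM were higher in KO cells in all 4 tables. GAPDH, the dehydrogenase that yields NADH, went from 4337 to 6591 in control, 6274 to 6965 under cisplatin, 8247 to 12622 under doxorubicin and 4971 to 6368 under tunicamycin. The 69 other genes of its window on chromosome 12, which also holds TPI1, had median log2 ratios of 0.21, 0.11, 0.27 and 0.15. GAPDH itself had 0.60, 0.15, 0.61 and 0.36 in the authors' deposited tables. PKM, the pyruvate kinase of most tissues, went from 1716 to 2461, 1672 to 1861, 3013 to 5002 and 1524 to 2344 in the same order. Both differences were smallest under cisplatin, at 1.11-fold. ENO1, the ubiquitous enolase, was 2240 to 2474, 2158 to 1937, 3292 to 4072 and 1995 to 2261, called higher in 3 tables and lower under cisplatin. Its neuronal paralog ENO2 was called lower in each, at 36.6 to 29.5, 53.5 to 35.8, 76.7 to 55.9 and 29.5 to 17.1. ENO3, the muscle enolase, lay between 1.98 and 4.29 and was not called in any table. It overlaps PFN1, a gene of up to 5112 FPKM on the other strand. PGK1 and PGAM1, the kinase and the mutase between GAPDH and enolase, were 205 to 199.7 and 196 to 170.0 in control, the second of them called lower. Both were called higher in KO cells under cisplatin (165 to 187 and 181 to 195), doxorubicin (294 to 362 and 247 to 308) and tunicamycin (179 to 202 and 119 to 126), except that the tunicamycin difference of PGAM1 reversed when rescaled to the same total.

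The fate of pyruvate is set by the lactate dehydrogenases, the carriers and the PDK enzymes. LDHA, whose subunit favours lactate, was 1212 to 1237 in control (q = 0.321 in the authors' deposited table), was called higher in KO cells under cisplatin (942 to 1083) and tunicamycin (739 to 956), and lower under doxorubicin (455 to 359). LDHB, whose subunit favours pyruvate, was called lower in control (906 to 835) and higher under cisplatin (628 to 866), doxorubicin (973 to 1391) and tunicamycin (543 to 729.9). SLC16A3 (MCT4), the lactate exporter of glycolytic cells, was 433 to 553 in control, 560.2 to 469 under cisplatin, 374 to 462 under doxorubicin and 451 to 454 under tunicamycin, called higher, lower, higher and not at all. It overlaps CSNK1D, a gene of up to 79.2 FPKM on the other strand. SLC16A1 (MCT1) was at most 0.0165 FPKM in the 6 groups of control, cisplatin and doxorubicin and was not tested there. In tunicamycin it was 1.66 in WT and 2.06 in KO cells (q = 0.447 in the authors' deposited table). PDK3 (chromosome X, 24465221 to 24541862) was called lower in KO cells in each table, at 1.81 to 0.264 in control, 1.57 to 0.215 under cisplatin, 1.38 to 0.234 under doxorubicin and 1.13 to 0.241 under tunicamycin, a 4.68 to 7.29-fold difference at a low level. PDK1 lay between 2.21 and 4.27 and was not called.

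FBP1, the fructose 1,6-bisphosphatase that runs the phosphofructokinase step backwards (chromosome 9, 94603133 to 94640249, minus strand), was lower in KO cells throughout. It went from 80.7 to 19.2 FPKM in control, 36.5 to 11.8 under cisplatin, 90.0 to 26.9 under doxorubicin and 49.8 to 17.9 under tunicamycin, or 4.21, 3.10, 3.35 and 2.78-fold. The highest KO level was below the lowest WT level. The 46 other genes of its window (90000001 to 100000000) had median log2 ratios of -0.40, -0.48, -0.43 and -0.34, against -2.07, -1.63, -1.74 and -1.47 for FBP1 in the authors' deposited tables. FBP1 and SLC2A8 were the only 2 of the 31 genes in a window shifted by at least 0.3 with the same sign in all 4 tables. PGM1, which links glucose 6-phosphate to glycogen, was called higher without drug (37.7 to 42.3) and under doxorubicin (40.3 to 58.8) and tunicamycin (41.5 to 47.5) and lower under cisplatin (30.7 to 28.5). It overlaps ITGB3BP, a gene of up to 17.3 FPKM on the other strand.

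**Figure D2:**
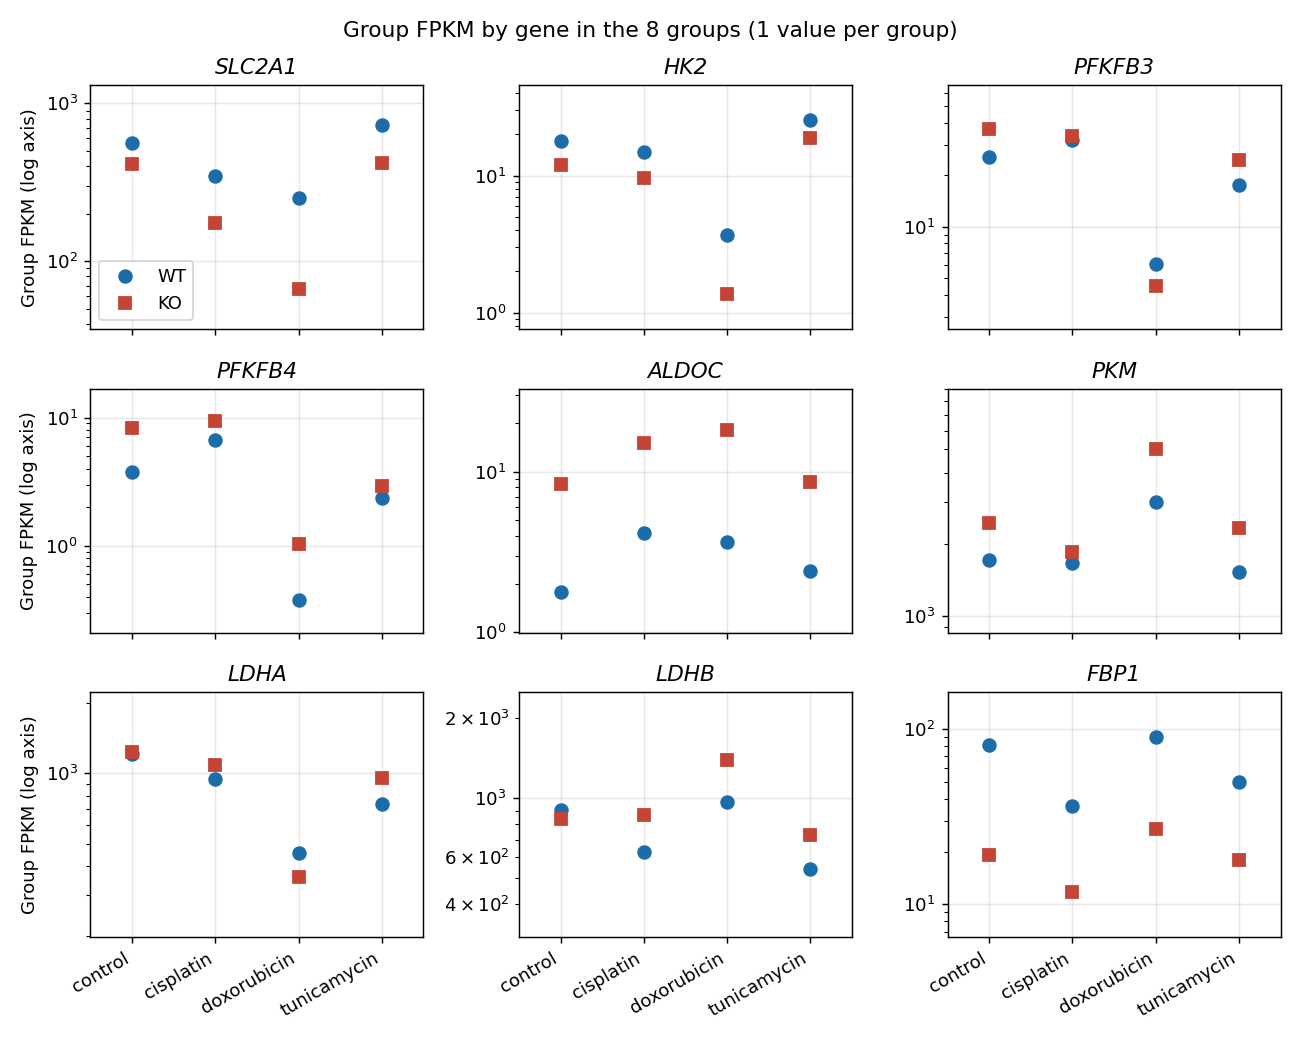
Group FPKM (log axis, 1 value per group, each panel with its own range) of 9 genes under the 4 treatments, blue circles WT and red squares KO. SLC2A1, HK2 and FBP1 have KO below WT in each treatment and ALDOC and PKM above, while the doxorubicin points of HK2, PFKFB3, PFKFB4 and LDHA lie far below those of the other treatments in both genotypes.

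Among the members called in opposite directions, the lower call was most often the one under cisplatin. Of the 30 members tested in all tables, 10 were called in opposite directions in 2 tables, where 12.9% of all genes tested in the 4 tables were. For 7 of the 10 (HK1, PFKL, PFKP, GPI, ENO1, SLC16A3 and PGM1) the lower call was the one under cisplatin, PGAM1 and LDHB were called lower in control, and LDHA under doxorubicin. Where the lower call fell was not counted over all genes, and opposite calls were not counted among abundant genes alone. Leaving out doxorubicin, 9 were called in opposite directions, beside 8.56% of genes. In the authors' deposited tables the log2 ratio of PFKP was 0.37 in control and -0.46 under cisplatin, and that of SLC16A3 was 0.35 and -0.26. On the log2 (FPKM + 1) scale, the KO over WT ratio was smaller under cisplatin than in control by 1.5-fold or more for these 2 genes (differences of -0.83 and -0.61), where 13.6% of all genes at 1 FPKM or more did so, and larger by as much for 0 of 30, beside 10.1% of all genes. These differences between tables were not tested.

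The E-box was looked for in the promoters, because it is the sequence that BMAL1 binds with CLOCK. RefSeq promoters (GRCh38.p14) were matched for 28 of the 31 genes, and the 250 bases before the first listed start of each were searched. CACGTG, which reads the same on both strands, occurred in 3 of 28 (ALDOC, GAPDH and LDHA), or 10.7%, and in 6.49% of 27305 genes with such a promoter. The shorter core ACGTG, which lies within CACGTG and belongs to the HIF-1 site, was found on either strand in 9 of 28 (32.1%) and in 18.7% of all, and GCGTG in 11 of 28 (39.3%) and 31.9%. The promoters with CACGTG are shown because their genes behaved unlike one another in the knockout, and that of SLC2A1 as a gene without it that was lower in every table. All are written 5′ to 3′ on the gene's strand and end at the base before the start, with CACGTG in capitals.
ALDOC, chr17:28576896-28577145, minus strand: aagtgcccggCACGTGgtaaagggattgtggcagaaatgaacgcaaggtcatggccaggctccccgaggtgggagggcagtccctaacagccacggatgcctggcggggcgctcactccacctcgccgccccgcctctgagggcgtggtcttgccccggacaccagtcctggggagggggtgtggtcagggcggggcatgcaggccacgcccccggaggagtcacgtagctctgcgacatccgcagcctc
GAPDH, chr12:6535014-6535263, plus strand: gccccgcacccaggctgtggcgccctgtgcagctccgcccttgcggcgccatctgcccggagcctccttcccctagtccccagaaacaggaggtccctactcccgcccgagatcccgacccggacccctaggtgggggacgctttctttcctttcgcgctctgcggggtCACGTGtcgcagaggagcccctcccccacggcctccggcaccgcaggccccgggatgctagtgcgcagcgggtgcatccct
LDHA, chr11:18394313-18394562, plus strand: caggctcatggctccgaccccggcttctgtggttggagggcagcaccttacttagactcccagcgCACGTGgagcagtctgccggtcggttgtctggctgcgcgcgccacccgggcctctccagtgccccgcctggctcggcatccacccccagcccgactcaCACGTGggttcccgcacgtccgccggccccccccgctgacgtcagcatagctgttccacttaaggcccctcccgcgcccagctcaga
SLC2A1, chr1:42958869-42959118, minus strand: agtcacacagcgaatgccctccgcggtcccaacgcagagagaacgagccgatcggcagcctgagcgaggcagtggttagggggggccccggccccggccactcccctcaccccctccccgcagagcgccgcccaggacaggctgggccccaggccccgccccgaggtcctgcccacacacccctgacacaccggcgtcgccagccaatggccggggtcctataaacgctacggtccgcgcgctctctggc
The E-box began 240 bases before the first listed start in ALDOC, 81 in GAPDH, and 185 and 87 in LDHA. That start need not be the outermost start of a gene. The GAPDH window (6535014 to 6535263) lay inside the gene, which runs from 6533927 to 6538374 on the plus strand. The windows of ALDOC, SLC2A1 and GPI also lay wholly inside their genes. So did those of ENO1, ENO2, ENO3, FBP1, LDHB, PFKFB4, PFKM, PFKP, PGAM1, PGK1, PKM and TPI1. Use of the listed starts in these cells was not tested, and promoters at other starts were not searched. ALDOC and GAPDH were called higher in KO cells in all tables, while LDHA, with 2 copies, was 1212 to 1237 in control and was called in both directions under drugs. A match is a description of the letters and says nothing of binding.

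The drugs were then compared with control within each genotype. These ratios cross separately normalized tables, have 1 value per group and carry no test, and they are given as log2 (FPKM + 1). A change is counted where it was at least 1.5-fold, over genes at 1 FPKM or more in either group. After doxorubicin the median of all genes was -0.72 in WT and -0.74 in KO cells, and 54.4% and 54.1% of genes were at least 1.5-fold lower, against 11.0% and 13.2% higher. Glycolysis genes mostly lay above that median. In WT cells 10 of 30 were higher and 5 lower, and in KO cells 13 of 29 higher and 7 lower. Relative to the median of all genes these counts became 21 higher and 4 lower in WT (32.0% and 32.1% of all genes) and 18 higher and 5 lower in KO cells (34.4% and 32.8%). With each group rescaled to the same summed FPKM the split turned over, to 5 higher and 6 lower in WT (7.23% and 61.6% of all genes) and 1 higher and 10 lower in KO cells (4.62% and 64.1%). The median of all genes was then -0.97 in WT and -1.13 in KO cells, and that of the members -0.08 and 0.04. How many members pass 1.5-fold thus depends on the scaling, while 25 of 30 in WT and 23 of 29 in KO cells lay above the median of all genes. The members were not compared with abundant genes alone here.

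The 5 genes lower after doxorubicin in WT cells were also lower in KO cells: SLC2A1, HK2, PFKFB3, PFKFB4 and LDHA. These 5 were past 1.5-fold lower in both genotypes after rescaling too. Relative to the median of all genes, all 5 stayed past 1.5-fold lower in KO cells. In WT cells all but SLC2A1 did, which was at -0.43. HK2 went from 17.9 to 3.69 FPKM in WT and from 11.9 to 1.36 in KO cells. PFKFB3 went from 25.5 to 6.06 and from 37.1 to 4.54, and PFKFB4 from 3.78 to 0.374 and from 8.31 to 1.02. LDHA went from 1212 to 455 in WT and from 1237 to 359 in KO cells while LDHB went from 906 to 973 and from 835 to 1391. LDHA thus exceeded LDHB 1.34-fold in WT and 1.48-fold in KO control, whereas after doxorubicin LDHB exceeded LDHA 2.14-fold and 3.88-fold. As deposited, 9 genes were higher in both genotypes (ALDOA, ALDOC, ENO2, GAPDH, GPI, PFKL, PFKM, PKM and TPI1), of which ALDOC alone stayed past 1.5-fold in both after rescaling. PFKL went from 36.3 to 75.2 in WT and from 42.3 to 86.8 in KO cells, and GPI from 218 to 399 and from 263 to 469.8.

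Fewer of these genes passed 1.5-fold after cisplatin and tunicamycin. After cisplatin 4 of 30 were higher and 2 lower in WT cells (19.9% and 12.4% of all genes), and 5 of 29 higher and 3 lower in KO cells (18.9% and 14.7%). SLC2A1 and FBP1 were lower in both genotypes: SLC2A1 went from 556 to 347 and from 415 to 174, and FBP1 from 80.7 to 36.5 and from 19.2 to 11.8. ALDOC, ENO3 and SLC2A6 were higher in both, with SLC2A6 at 7.81 to 19.3 in WT and 7.91 to 12.8 in KO cells. After tunicamycin 2 of 31 were higher and 4 lower in WT (10.6% and 11.8%) and 2 of 30 higher and 3 lower in KO cells (8.63% and 8.88%). SLC16A1 was the only one of them shared by both genotypes, from at most 0.0151 to 1.66 and 2.06 FPKM. HK2 went from 17.9 to 25.5 in WT and from 11.9 to 18.8 in KO cells, past 1.5-fold in the second alone. LDHA, LDHB, PGAM1 and FBP1 were lower after it in WT cells, and ENO2, PFKFB3 and PFKFB4 in KO cells. Relative to the median of all genes, cisplatin left 2 higher and 3 lower in WT (15.2% and 16.0% of all genes) and 2 and 4 in KO cells (12.8% and 18.5%). Tunicamycin left 2 and 4 in WT (12.5% and 8.82%) and 2 and 2 in KO cells (10.3% and 6.84%).

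**Figure D3:**
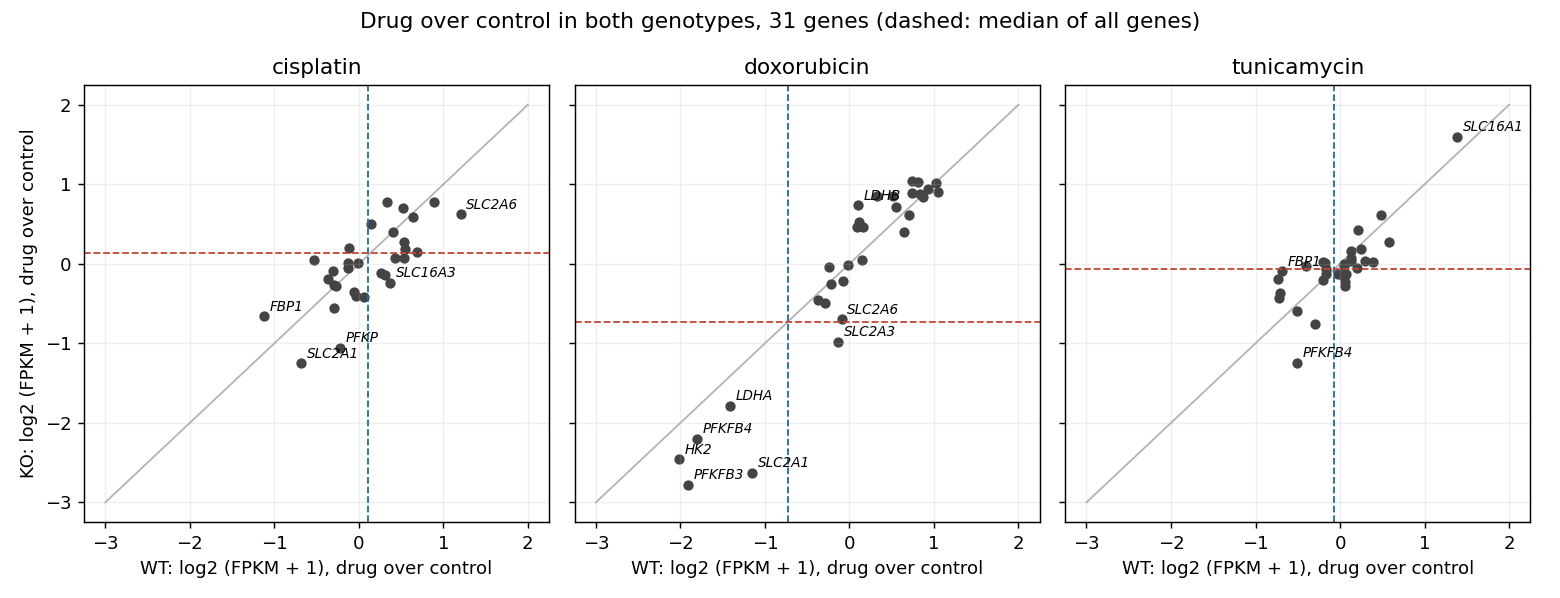
Drug over control in KO (vertical) against WT cells (horizontal) for the 31 genes, as log2 of (FPKM + 1) ratios; the grey diagonal marks equal ratios and the dashed lines the median of all genes in WT (blue) and KO (red). Under doxorubicin 5 genes lie in the lower left corner while most of the others lie above both medians, and SLC2A1 falls well below the diagonal.

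The doxorubicin ratio of SLC2A1 differed most between the genotypes. Its log2 ratio was -1.15 in WT and -2.63 in KO cells, so the KO over WT ratio was smaller by 1.48 than in control. SLC2A3 (-0.85), SLC2A6 (-0.60) and PFKFB3 (-0.87) had differences of the same sign past 1.5-fold, and LDHB (0.63) one of the other sign. Among all genes 12.5% had such a negative and 10.4% such a positive difference under doxorubicin. In tunicamycin the members past 1.5-fold were PFKFB4 (-0.73) and FBP1 (0.59), beside 8.22% and 7.81% of all genes. The differences have 1 value each and were not tested, and all share the control table.

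Of 91 related genes in 6 lists, chosen from textbook knowledge with earlier results of these data known, 90 were found. Their counts stand beside 43.8%, 49.6%, 45.1% and 49.3% of all tested genes called in control, cisplatin, doxorubicin and tunicamycin. The pentose phosphate pathway, which branches off at glucose 6-phosphate and yields NADPH and ribose, had more higher than lower calls in KO cells. There were 5 higher and 0 lower calls among 7 tested in control, 4 and 2 under cisplatin, 5 and 0 under doxorubicin and 6 and 0 under tunicamycin, where 22.7%, 25.4%, 24.4% and 27.2% of all tested genes were called higher and 21.1%, 24.2%, 20.7% and 22.1% lower. Genes at 100 FPKM or more, among them TKT and TALDO1, were called in 81.5% to 88.5% of cases. The median log2 ratio was 0.74, 0.46, 0.72 and 0.61 in the authors' deposited tables, beside 0.01, 0.02, 0.04 and 0.03 over all tested genes. PGD, a dehydrogenase that yields NADPH, went from 88.2 to 151 FPKM in control, 115 to 158 under cisplatin, 123 to 211 under doxorubicin and 87.0 to 172 under tunicamycin. RPIA, the ribose isomerase, went from 16.5 to 28.9, 11.9 to 19.6, 31.3 to 56.0 and 12.6 to 20.5 in the same order. TALDO1, the transaldolase that returns carbon to glycolysis, went from 144 to 205, 162 to 229.6, 201 to 331 and 135 to 241. All 3 were called higher in each table, and every KO level of PGD was above every WT level.

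TXNIP, the glucose-sensitive arrestin that draws GLUT1 off the cell surface, was lower in the knockout: 76.5 to 9.59 in control, 88.0 to 43.4 under cisplatin, 4.30 to 1.01 under doxorubicin and 85.7 to 23.9 under tunicamycin. It was called in each table, as were EGLN1, the oxygen sensor of HIF (28.2 to 15.8 in control), and USF2, an E-box binding factor (90.6 to 80.3). ARRDC4, a relative of TXNIP named after its values were seen, was 2.36 to 0.154 in control and was called lower in all but doxorubicin, where it was not tested. HIF1A was called only under tunicamycin (55.5 to 66.2) and was 55.9 to 62.4 in control. MYC was called lower under cisplatin (59.5 to 50.3) and tunicamycin (111 to 88.0) and higher under doxorubicin (4.04 to 7.41), where both levels were far below those of control (60.1 and 61.1). HIF1A and MYC were also named after their values were seen. The regulators together had 5 higher and 4 lower calls of 16 tested in control, 4 and 8 of 16 under cisplatin, 2 and 5 of 14 under doxorubicin and 3 and 8 of 15 under tunicamycin, beside 43.8%, 49.6%, 45.1% and 49.3% of all tested genes called in either direction.

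Many other isoforms of the pathway were silent or low, and 11 of 31 were tested in control, 14 under cisplatin, 11 under doxorubicin and 13 under tunicamycin. Their higher and lower calls numbered 2 and 1, 5 and 3, 5 and 3, and 4 and 4. HKDC1, a hexokinase relative, was called higher in each table, at 1.58 to 7.84, 2.53 to 10.7, 1.06 to 4.56 and 2.30 to 18.6. SLC16A6, a further carrier of the monocarboxylate family, was called higher in each too, at 1.11 to 7.56 in control. SLC2A13 was 2.23 to 1.17 in control and was called lower there, under doxorubicin and under tunicamycin. PDK2 and BSG of this list were named after their values were seen. PDK2 was above PDK1 and PDK3 in every group, at 23.4 to 16.9 in control, where it was not called. It was called lower under cisplatin (37.1 to 29.1), doxorubicin (18.25 to 10.3) and tunicamycin (25.4 to 16.2). BSG was 733 to 747 in control, not called there, and was called lower under cisplatin and tunicamycin and higher under doxorubicin. At the entry of pyruvate into the mitochondria, 3 of 11 were called higher and 4 lower in control, with 5 and 1 of 11 under cisplatin, 5 and 3 of 10 under doxorubicin and 4 and 2 of 11 under tunicamycin. MPC1, a subunit of the pyruvate carrier, was called lower in each (42.0 to 18.3 in control), and PDHA1, a subunit of pyruvate dehydrogenase, higher in each (85.8 to 122). MPC1 and PDHX, a further subunit of the complex (37.6 to 23.5), lie in shifted windows. Glycogen genes had 1 and 6 of 15 in control, 3 and 6 of 15 under cisplatin, 4 and 4 of 14 under doxorubicin and 4 and 5 of 15 under tunicamycin. The phosphorylase PYGB was called lower in each (112 to 93.9 in control), and its paralog PYGL in all but cisplatin (63.1 to 50.6 in control), where it was called higher (74.0 to 85.0). PPP1R3C, a glycogen-targeting phosphatase subunit, was 1.59 to 0.221 in control and was called lower in the 3 tables in which it was tested. Gluconeogenesis had 0 and 2, 1 and 2, 0 and 2, and 0 and 2 calls of 3 tested. PCK2, the mitochondrial PEP carboxykinase, was called lower in control (9.70 to 4.47), cisplatin (16.05 to 10.25) and doxorubicin (13.0 to 9.87). Under tunicamycin it was 53.0 to 54.8 and was not called. G6PC3, a glucose 6-phosphatase subunit, was 63.2 to 63.0 in control and was called lower under cisplatin (94.4 to 71.8), doxorubicin (126 to 113) and tunicamycin (85.1 to 62.7). SLC37A4, the glucose 6-phosphate carrier, was called lower in control (34.2 to 29.9) and tunicamycin (28.1 to 23.2) and higher under cisplatin (35.9 to 40.1).

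**Figure D4:**
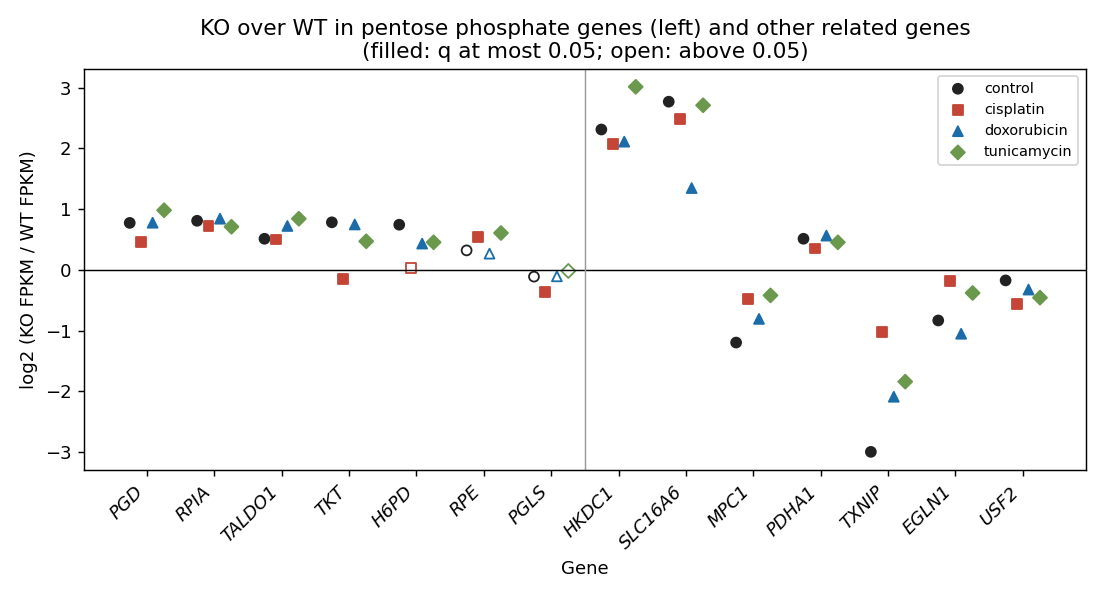
Deposited log2 ratio of KO over WT FPKM under the 4 treatments for 7 pentose phosphate genes (left of the line) and 7 other related genes; filled symbols have q of at most 0.05. PGD, RPIA and TALDO1 lie above 0 and TXNIP below 0 in all 4 tables, and TKT lies below 0 under cisplatin alone.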

How the data were processed

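RNA-seq libraries (mRNA kit, paired-end) of 8 groups of 2 were made, per the labels' protocols, one of which speaks of fibroblast lines although all other labels name MDA-MB-231. FastQC 0.11.5, Trimmomatic 0.35, STAR 2.5.3, Cufflinks, Cuffdiff and build hg38 were used, per the submitters' processing notes, with annotation and strand use not given in the sources used here. The authors deposited 1 FPKM per group, pooling both replicates. Depth per library is therefore unknown, and p-values measure the spread that Cuffdiff estimated. The log2 ratio (KO over WT, no pseudocount), the test score, the p-value and the q-value are the authors' own as deposited; log2 ratios and Benjamini-Hochberg q-values were recomputed to within 4.64e-05 and 5.25e-07. The smallest q of each table was shared by 19 to 21 of the called members, so it ranks none. Columns were read as WT, then KO, by the deposited names and group codes. Genes with status OK and q of at most 0.05 were called. Drug responses used a pseudocount of 1, which understates changes of low genes. Positions come from GENCODE 29 (GRCh38), and windows of 10 Mb were used with 10 or more genes tested in all 4 tables. All 31 genes are accounted for. From related lists up to 3 genes were named by the number of tables called, then by size. The values of 1 gene of the related lists are not reported here, and it was left out of their counts. The members and lists were chosen with earlier results of these data known. Python 3.11.15 and pandas 2.3.3 were used, and scripts were tested on simulated data.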

Additional observations from a re-analysis of the deposited data

Results flagged for a closer look

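Of the 31 genes, 10 were called in opposite directions under 2 treatments, each by the authors' test within its table; the difference between the tables itself was not tested. As the gap between the highest called and the lowest called log2 ratio, it was 0.833 for PFKP, 0.652 for PGM1, 0.609 for SLC16A3, 0.477 for HK1, 0.462 for ENO1, 0.383 for GPI and 0.371 for PFKL, all lower under cisplatin. It was 0.633 for LDHB and 0.526 for PGAM1, lower in control, and 0.713 for LDHA, lower under doxorubicin.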

How the results depend on the processing

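No paired analysis was possible because the tables hold 1 value per group, and for the same reason no replicate could be left out. Counts of called members stayed within 1.5 times under q of at most 0.01, centring on all tested genes, a minimum of 5 FPKM, removal of shifted windows and rescaling of each group to the same total, the last added after the data were seen. With a minimum of 1.5-fold they fell to 9 in control, 8 under cisplatin, 12 under doxorubicin and 9 under tunicamycin. Rescaling reversed PFKL (-0.00197) and PFKP (-0.0801) under doxorubicin and HK1 (-0.0478) and PGAM1 (-0.0532) under tunicamycin, since it moves all log2 ratios by 0.21 and 0.14 there. Without doxorubicin, an alternative added later, 6 members were higher and 6 lower in every table, SLC2A3 joining the first. For drug responses a 2-fold minimum left 2 (WT) and 2 (KO) members under cisplatin, 7 and 8 under doxorubicin, and 1 and 2 under tunicamycin. Centring raised the doxorubicin count to 25 in WT and turned SLC2A6 in KO cells to 0.0443, and rescaling changed the doxorubicin split from 10 higher and 5 lower to 5 and 6 in WT, and from 13 and 7 to 1 and 10 (11 in all) in KO cells. Differences from control past 1.5-fold numbered 4 under cisplatin with a pseudocount of 0.1 and 1 under tunicamycin after centring.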
